A study of Arabidopsis thaliana with 6 samples.

Results

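In sams3 seedlings, 8 genes that encode enzymes of jasmonate synthesis had higher transcript levels than in L119 seedlings. They are the lipoxygenase genes LOX2 (AT3G45140), LOX3 (AT1G17420) and LOX4 (AT1G72520), the allene oxide cyclase genes AOC1 (AT3G25760), AOC2 (AT3G25770) and AOC3 (AT3G25780), the reductase gene OPR3 (AT2G06050) and the acyl-CoA ligase gene OPCL1 (AT1G20510). They were picked by gene identifier from 1336 genes that the authors listed as changed. The choice was made with their fold changes and p-values known, so their direction and the size of their change are given as a description, with no test.

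RNA was sequenced from 2 libraries of sams3, a mutant of S-adenosylmethionine synthetase 3, and, as the wild type of the study, from 2 libraries of the transgenic line L119. Both genotypes are labelled with L119 as their ecotype, and the labels used here name neither the allele of sams3 nor the transgene of L119. Whole seedlings of Arabidopsis thaliana were collected at 15 days from agar plates (0.8%) with sucrose at 20 g/L, kept at 22 °C with 23 h of light a day. Separate cultures are not stated for the libraries of a genotype, so the spread behind the p-values may be technical. In whole seedlings, more cells that express a gene and more RNA per cell cannot be told apart.

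Each value is the log2 fold change of sams3 over L119 or its p-value from the authors' deposited table, in which a log2 of 1 is a 2-fold difference. The authors kept genes with a change of at least 2-fold and a p-value below 0.0001. A gene outside the lists is called not listed, which does not mean that it was unchanged. Levels in single libraries and standard errors were not used here, so neither the overlap of the genotypes nor the error of a fold can be given, and the depth is unknown.

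Jasmonates are lipid hormones of plants, known for the response to wounding and to insects and for stamen development. In plastids, lipases free linolenic acid from membrane lipids, 13-lipoxygenases add oxygen to it, allene oxide synthase (AOS) makes an unstable allene oxide, and allene oxide cyclases turn that into OPDA, 12-oxophytodienoic acid. OPDA moves to peroxisomes, where OPR3 reduces it, OPCL1 activates the product with coenzyme A and rounds of β-oxidation shorten it to jasmonic acid. JAR1 joins jasmonic acid to isoleucine, and this conjugate is the form that the receptor COI1 perceives.

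All 8 enzymes are in the list of higher genes, as the choice of members fixes. For comparison, 66.9% of all listed genes were higher, and the higher list holds 3.12% of the 27444 protein-coding loci of the reference. In the authors' deposited table the log2 fold changes of the 8 genes ran from 1.37 to 2.58, with a median of 1.93 against 1.62 for all 894 higher genes. Of the 8, 6 lay above that overall median, and AOC3 and OPCL1 lay below it. With a log2 of at least 2, 3 of the 8 were left (AOC1, AOC2 and OPR3), where 32.2% of all higher genes were left, and with at least 1.5, 6 of the 8, where 55% of all higher genes were left.

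**Figure D1:**
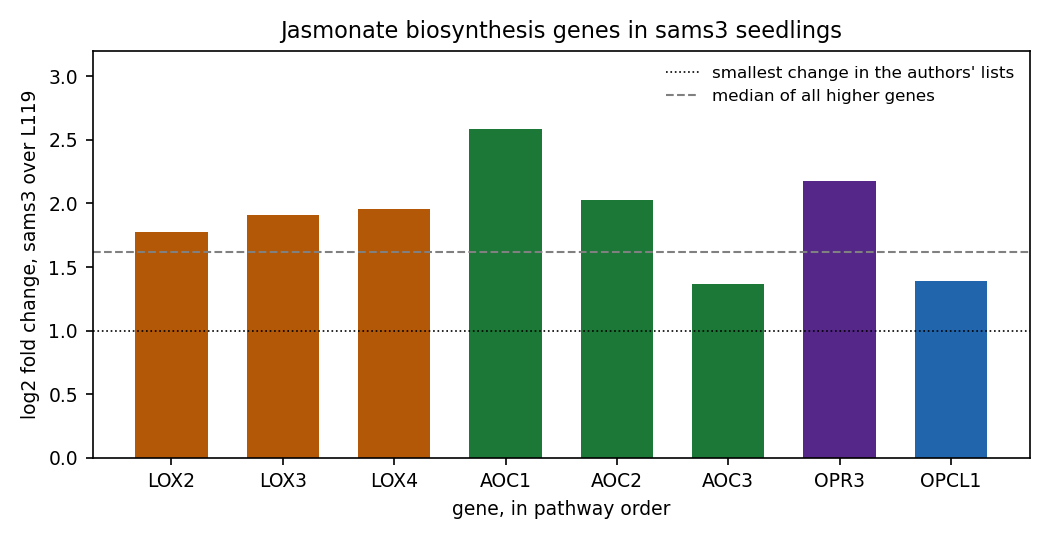
Bars give the log2 fold change of sams3 over L119 in the authors' deposited table for each gene in pathway order, coloured by enzyme family; the dashed line is the median of all higher genes (1.62) and the dotted line the smallest change the lists allow (1). AOC1 is the highest bar at 2.58, and AOC3 and OPCL1 are under the dashed line; no error bars are drawn because the table gives none.

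The lipoxygenases rose by 3.43- to 3.88-fold. LOX2, the leaf enzyme known for wound-induced jasmonate synthesis, was lowest of the 3, at 3.43-fold higher in sams3 (log2 1.78, p = 8.75e-146 in the authors' deposited table). LOX3 was 3.75-fold higher (log2 1.91, p = 8.01e-203 in the authors' deposited table). LOX4 was 3.88-fold higher (log2 1.96, p = 2.48e-227 in the authors' deposited table), the smallest p-value of the 8. LOX3 and LOX4 are together needed for male fertility. The log2 values of the 3 lipoxygenases spanned 0.18, and those of LOX3 and LOX4 differed by 0.05. LOX3 and LOX4 are each other's closest protein match in the deposited descriptions, so how the authors' counting assigned reads that fit both could affect their single values. LOX6, the remaining 13-lipoxygenase and the closest match of LOX2, was not listed. Neither were LOX1 and LOX5, which oxygenate fatty acids at another position and do not lead to jasmonates.

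The allene oxide cyclases had unequal folds. AOC1 was 5.99-fold higher in sams3 (log2 2.58, p = 2.86e-224 in the authors' deposited table), the largest rise of the 8. AOC2 was 4.07-fold higher (log2 2.02, p = 1.56e-193 in the authors' deposited table), and AOC3 was 2.58-fold higher (log2 1.37, p = 2.20e-99 in the authors' deposited table), the smallest rise. These 3 genes catalyse the same step and lie directly next to each other on chromosome 3, and in that gene order their log2 values stepped down by 0.56 and then by 0.66. Log2 values of AOC1 and AOC3 were 1.22 apart, the full span of the 8 enzymes, whereas the 3 lipoxygenases, which are not neighbours, were within 0.18. The differences between these genes were not tested. AOC1 and AOC2 are each other's closest protein match and AOC2 is the closest match of AOC3 in the deposited descriptions, so their single values are uncertain where reads fit more than 1 copy. The remaining cyclase gene, AOC4, which lies on chromosome 1, was not listed.

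Both peroxisomal enzymes rose as well. OPR3, the reductase that acts on the natural isomer of OPDA, was 4.52-fold higher in sams3 (log2 2.18, p = 2.55e-224 in the authors' deposited table), second to AOC1 in size. OPR1 and OPR2, its paralogues, were not listed. OPCL1 was 2.62-fold higher (log2 1.39, p = 8.87e-121 in the authors' deposited table), close to AOC3. AT1G20500, the closest protein match of OPCL1 and the locus next to it, was not listed. In the deposited descriptions, 2 other listed genes carry the AMP-dependent synthetase and ligase domain of OPCL1, both higher: AAE12 (log2 2.03 in the authors' deposited table) and the phenylpropanoid gene 4CL5 (1.04 in the authors' deposited table), named after their values were seen.

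The p-values of these enzymes were small for the size of their folds. By size of fold the 8 genes ranked from 176 (AOC1) to 572 (AOC3) among the 894 higher genes, and by p-value from 15 (LOX4) to 87 (AOC3). Within the range of log2 that the enzymes span there were 389 other higher genes, with a median p of 1.38e-23, and 13.4% of them (52 genes) had a p-value at or below that of AOC3. At a given fold a smaller p-value goes with more reads or a smaller spread between libraries, and these cannot be told apart without levels. These ranks come from the values that chose the genes and are a description only.

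**Figure D2:**
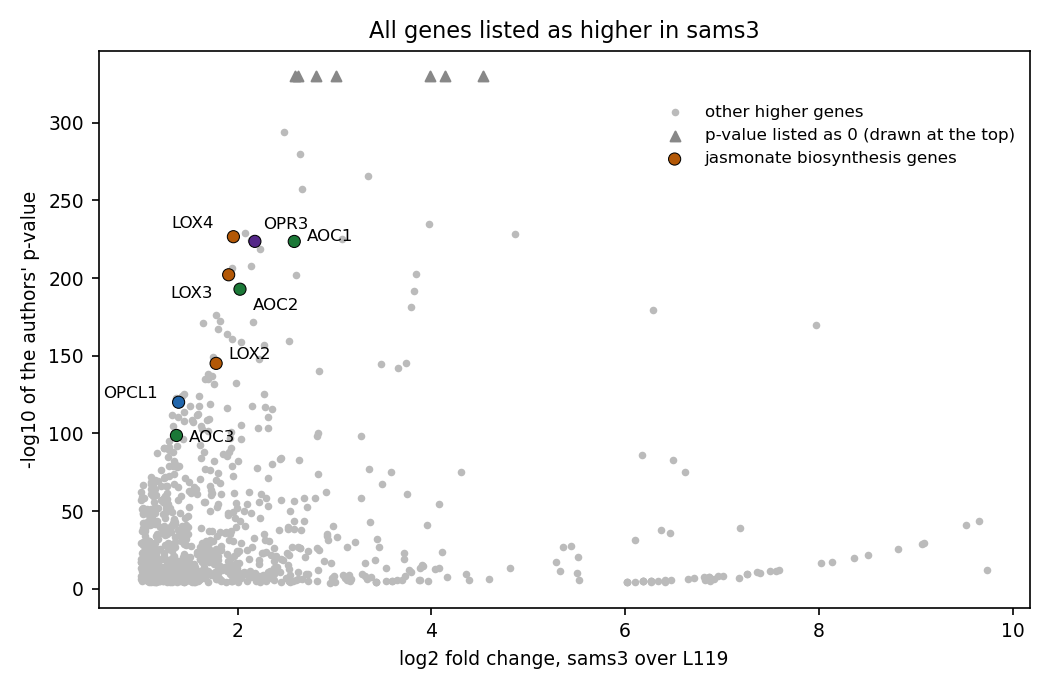
Each point is 1 of the 894 higher genes, with its log2 fold change of sams3 over L119 on the x axis and −log10 of its p-value on the y axis, both from the authors' deposited table; triangles mark the 7 genes whose p-value is listed as 0. The 8 jasmonate enzymes (coloured, named) lie towards the upper left of the points, with other higher genes around them, at log2 values between 1.37 and 2.58.

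AOS and the other genes of synthesis that were looked up have no value in the lists. Of these 23 further genes, which act between membrane lipid and the conjugate or modify jasmonic acid, 0 were listed as higher and 0 as lower. With 3.12% of all protein-coding loci listed as higher and 1.58% as lower, a count of 0 among so few genes is near the background and is no result about them. They comprise 3 lipases (DAD1, DGL and PLA-Iγ1), 3 desaturases that supply linolenic acid (FAD3, FAD7 and FAD8), the plastid genes LOX6, AOS and AOC4, the transport genes JASSY and PXA1, 10 genes of β-oxidation, and JAR1 and JMT, of which JMT methylates jasmonic acid with S-adenosylmethionine as donor. AOS encodes the step between the lipoxygenases and the cyclases, so the listed genes flank a step without a value. HPL1, a hydroperoxide lyase gene of the branch that competes with AOS, was not listed either. Outside the list of lipases, AT4G16820, described as a galactolipase and phospholipase whose closest match is DAD1, was higher (log2 2.00, p = 3.90e-05 in the authors' deposited table). It was named after its value was seen, and that p-value is above 1.32e-06, a Bonferroni threshold over all 37899 nuclear loci of the reference.

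Most of the genes of jasmonate turnover looked up here were in the higher list. They were chosen with earlier results of these data known, so their count is a description only. Of 10 turnover genes, 8 were listed as higher, 0 as lower and 2 were not listed, beside the 3.12% of all protein-coding loci that were listed as higher. Their log2 values in the authors' deposited table ran from 1.15 to 3.07 with a median of 1.79, a range that overlaps that of the synthesis enzymes. CYP94C1, which oxidises the isoleucine conjugate, was highest (log2 3.07, p = 7.61e-226 in the authors' deposited table). CYP94B3 and CYP94B1, which hydroxylate it, had log2 values of 1.74 and 1.82 in the authors' deposited table. JOX2, JOX4 and JOX3, which hydroxylate free jasmonic acid, were at 2.60, 2.22 and 1.77 in the authors' deposited table. ST2A, a sulphotransferase of hydroxyjasmonate, was at 1.32 and IAR3, an amidohydrolase that cleaves the conjugate, at 1.15 in the authors' deposited table. CYP94C1 and JOX2 thus had larger folds than AOC1, and ST2A and IAR3 smaller ones than AOC3. For 5 of the 8 turnover genes the p-value was larger than that of any synthesis enzyme. JOX1 and ILL6 were not listed.

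The perception and regulation genes looked up here were the receptor gene COI1, the factors MYC2, MYC3, MYC4 and ORA47 and the transporter gene ABCG16, without the JAZ repressors. Of these 6, also chosen with earlier results of these data known, 0 were higher and 2 lower, where 1.58% of all protein-coding loci were listed as lower. MYC4, a transcription factor of jasmonate responses, was lower in sams3 (log2 -1.03, p = 5.33e-35 in the authors' deposited table). ABCG16, a jasmonate transporter, was lower too (log2 -1.07, p = 5.11e-06 in the authors' deposited table). Both values lie close to the 2-fold limit of the lists. COI1, MYC2, MYC3 and ORA47, an ERF factor known to activate jasmonate synthesis genes, were not listed. The JAZ repressors, which bind MYC factors and are degraded through COI1, were counted after their values had been seen. Of 13, 7 were higher, 0 lower and 6 not listed, where 3.12% of all protein-coding loci were listed as higher. Their log2 values in the authors' deposited table ran from 1.17 for JAZ1 to 3.71 for JAZ13.

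**Figure D3:**
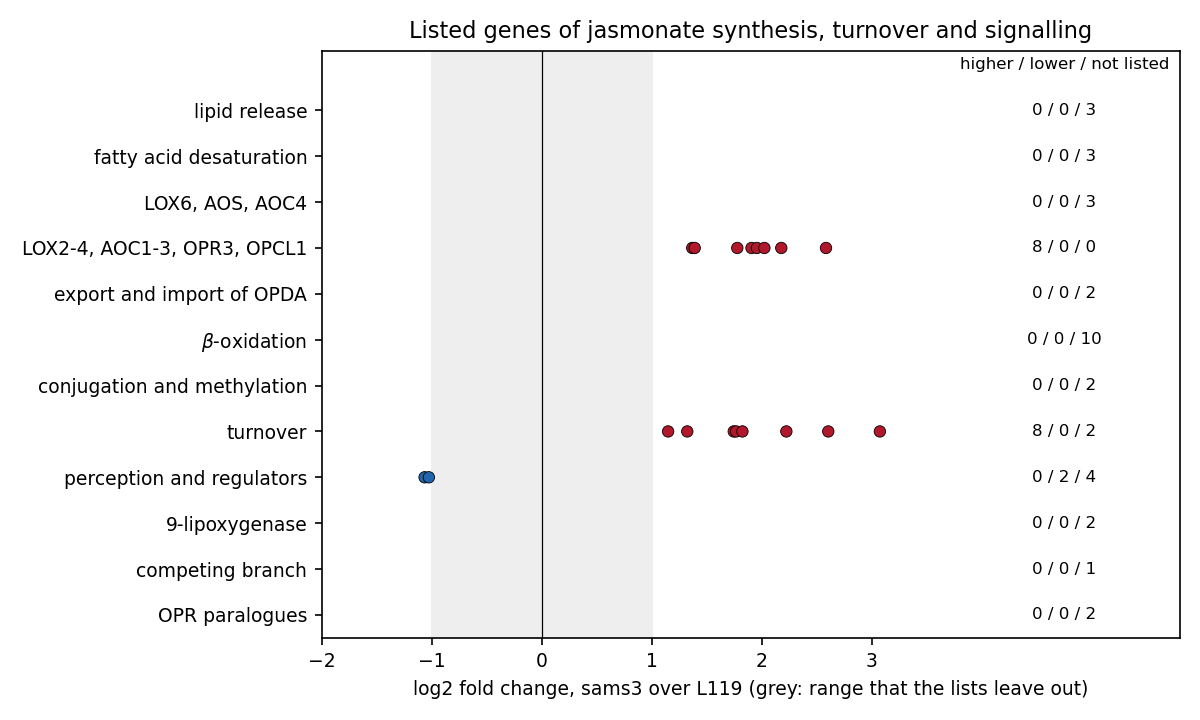
Points give the log2 fold change of sams3 over L119 in the authors' deposited table for each listed gene, by step (red: higher, blue: lower), and the numbers at the right count the genes that were higher, lower and not listed. Higher genes sit in the row of the 8 enzymes and in the row of turnover, which holds 8 of 10, and the JAZ genes are not drawn; the grey band is the range of change that the lists leave out.

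The deposited descriptions place the 8 enzymes in both compartments of the route. A chloroplast location is given for LOX2, LOX3, LOX4, AOC1 and AOC2, and for 8.76% of the 548 higher genes with a location. Of the 218 lower genes with a location, 28 have it too. A peroxisome location is given for OPR3 and OPCL1, and for 4 higher (0.73% of the 548) and 0 lower genes in all. AOC3 is described at the plasma membrane, which differs from the plastid role given to the cyclases as a family. The process jasmonic acid biosynthesis is named for 7 of the 8, with LOX2 described only by a number of processes, and for no other listed gene whose processes are spelled out. The 8 were chosen as enzymes of this process, so their count is no finding. Response to wounding is named for LOX3, LOX4, OPR3 and OPCL1, which are 4 of the 13 higher genes with this term. Those 13 are 2.42% of the 538 higher genes whose processes are spelled out. Among the 214 lower genes with processes spelled out, 0 have it. Genes described only by a number of processes, such as LOX2, could not be counted. Response to fungus is named for LOX3, AOC3 and OPR3, which are all 3 higher genes with this term. That is 0.558% of the same 538 genes, and 1 of the 214 lower genes has it.

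The lipoxygenase domain was found in 3 listed genes and the cyclase domain in 3, which are these LOX and AOC genes, chosen as such enzymes. RD20, a calcium-binding gene described with lipoxygenase activity but without that domain, was also higher (log2 1.09 in the authors' deposited table) and was named after its value was seen. The descriptions differ in how widely a gene is expressed. OPR3 is described in 25 plant structures, LOX2 in 24, LOX3 and OPCL1 in 22, AOC3 in 20 and LOX4 in 17, whereas AOC1 is described in pollen tubes alone and AOC2 in cotyledons and leaves. These entries are annotation and not measurements in these seedlings.

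The neighbours of these genes in the reference order were looked up. The 8 genes occupy 6 places, with 3 genes on chromosome 1, 1 on chromosome 2 and 4 on chromosome 3. Of 60 neighbours, 5 on each side of each place, 2 were listed as higher, 1 as lower and 57 were not listed. All 3 listed ones were among the 43 neighbours that code for protein, of which 4.65% were higher, near the 3.12% over all protein-coding loci. With 10 loci on each side, a window chosen after the values were seen, 4 of 83 protein-coding neighbours were higher (4.82%) and 1 was lower. Among protein-coding loci, the wider window adds JAZ5 (log2 1.94, p = 1.99e-161 in the authors' deposited table), the locus 6 places before LOX3. It also adds AT3G25719 (log2 7.17, p = 9.07e-08 in the authors' deposited table), 7 places before AOC1. Levels were not used here, so how few reads lie behind the fold of AT3G25719 is unknown. Loci that do not code for protein were not counted in the wider window, so listed ones among them are not named. Directly beside the members, 0 of 12 neighbours were higher, which so few loci cannot tell from the 3.12% over all protein-coding loci. Several of the 12 are noncoding or pseudogene loci, to which that share does not apply. Of the 12, 1 was lower. That gene, AT3G25790, a myb-like transcription factor gene, follows AOC3 and was at a log2 of -1.87 (p = 3.29e-19 in the authors' deposited table). The higher neighbours were LAS1, a lanosterol synthase gene near LOX2 (log2 3.27 in the authors' deposited table), and the AP2-type factor gene EDF3 near AOC1 (1.10 in the authors' deposited table), each the third locus away and named after its value was seen. Within 5 loci of LOX3, LOX4, OPR3 and OPCL1 no neighbour was listed.

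**Figure D4:**
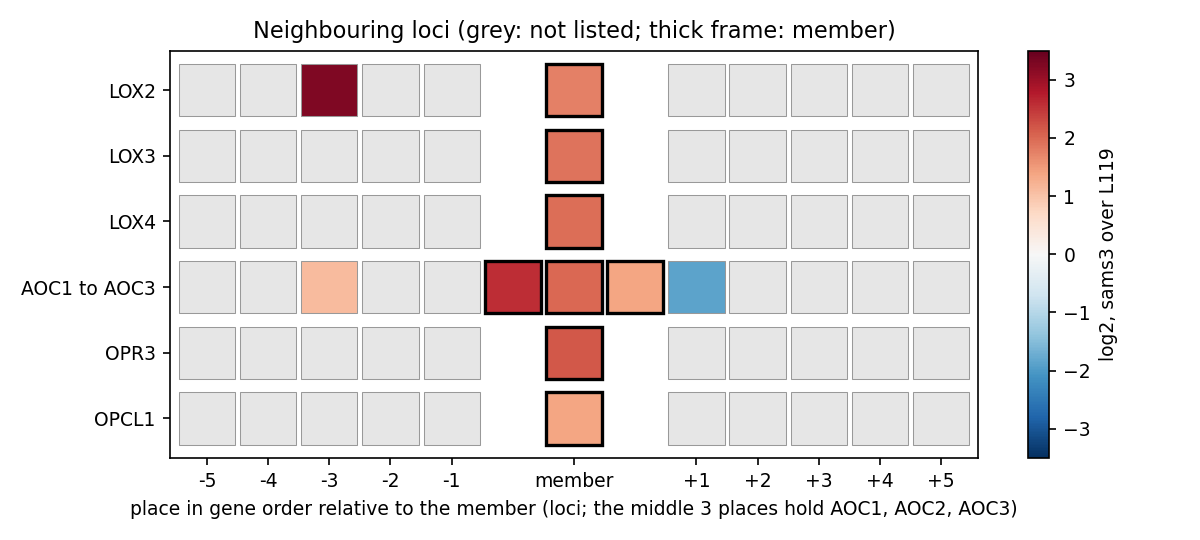
Each row is 1 place in the genome, with the jasmonate enzyme genes framed in the middle and 5 loci in gene order on each side; colour gives the log2 fold change of sams3 over L119 in the authors' deposited table and grey marks loci that were not listed. Within these windows AOC1, AOC2 and AOC3 are followed by a lower gene, AT3G25790, and most other loci are not listed.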

How the data were processed

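RNA libraries of sams3 and L119 (2 each) were compared by the authors; bisulfite libraries (1 each) were not analysed here. The deposited lists hold log2 fold changes of sams3 over L119 and p-values, and per the file headers the authors' limits were a change of 2-fold or more and p under 0.0001. The submitters' processing notes name edgeR, Bowtie2, Bismark and TAIR10; for versions, counting and p-value adjustment nothing is given in the sources used here. The list headed as transposable elements that rose is identical to the list of higher genes and was not used.

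The 8 genes, the 44 other pathway genes and all descriptions were chosen with earlier results of these data known. Named genes were all listed pathway genes and listed loci within 2 places of a member; exceptions are marked. Folds are 2 to the power of the deposited log2. RefSeq (TAIR10.1) gave symbols, biotypes and the order of loci, and there 1335 of 1336 listed genes and all 52 pathway genes were found; coordinates are not printed. Shares of protein-coding loci use 27444 loci, since the number of genes tested is not given. Ranks and counts were checked on simulated rows. Python 3.11.15, numpy 2.4.6, pandas 2.3.3 and matplotlib 3.10.9 were used.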

Additional observations from a re-analysis of the deposited data

How the results depend on the processing

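With an absolute log2 of at least 2, 3 of the 8 synthesis enzymes were left, beside 32.2% of all higher genes. Of the pathway genes outside them, 3 of the 8 higher ones and 0 of the 2 lower ones were left. With at least 1.5, the same counts were 6, 6 and 0, beside 55% of all higher genes. A Bonferroni threshold of 1.32e-06 over reference loci left 8, 8 and 1, the gene lost being ABCG16. Counting AOC1, AOC2 and AOC3 once left 6 places and a median log2 of 1.93. Higher protein-coding neighbours numbered 2 within 5 loci and 4 within 10, a window chosen after seeing the data. No paired analysis was possible because per-library values were not used, and for that reason leaving out each replicate, a filter on low values and another normalization were not run. Planned counts of promoter motifs and protein identities were not run, since sequences were not used here. Depth is unknown.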
